A study of Mus musculus with 51 samples.

Results

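The liver and plasma protein genes are 35 genes whose products hepatocytes make, together with transcription factors of the liver program. They were chosen from what is known of liver biology and not from a contrast in these arrays. Earlier results of these data were known when they were chosen. Members were found through the gene symbol of each probe set, keeping probe sets with 1 symbol and averaging log2 intensity per gene. Of the 35 genes, 33 were measured, by 52 probe sets, among 18194 genes in all. Trf and Cpb2 had no probe set with 1 symbol and are not analysed here. All 33 members were kept, with no filter on dim genes.

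The hepatocyte is the secretory cell of the liver and the source of most proteins of blood plasma: carriers such as albumin, the apolipoproteins of lipid particles, the zymogens of clotting and the inhibitors that restrain proteases. In the mouse embryo the liver bud grows from the foregut endoderm under transcription factors of the Foxa and Hnf families, and the yolk sac makes part of the same protein set before the liver is large. Limb buds are mesenchyme covered by ectoderm and are not known as a site of hepatocyte gene activity, although blood passes through their vessels.

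RNA of wildtype FVB mouse embryos was hybridized to 51 Affymetrix whole-genome mouse arrays, 1 embryo to each sample: 10 arrays of whole embryo, 22 of forelimb and 19 of hindlimb, with no treatment and no mutant allele in any group. Whole embryo was sampled at E9.5 and once a day up to E13.5, with 2 arrays at each stage, forelimb at the same stages with 3, 5, 4, 5 and 5 arrays, and hindlimb from E10.5 with 4, 5, 5 and 5 arrays. Per the study's methods, the limb replicates of a stage were littermates, so stage and litter cannot be told apart and the p-values measure the spread between littermates. The fit shares 1 estimate of the spread of each gene over all groups, and most arrays are of limbs. A p-value for whole embryo, with 2 arrays at a stage, thus rests largely on the spread between limb arrays. Replicate correlations were 0.969 to 0.996 within whole embryo stages and 0.992 to 0.998 within limb groups. The sources used here do not say whether the yolk sac was taken off the intact embryos.

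The arrays fell into 2 sets by their control probe sets. The Dap spike-in read 10.71 to 13.29 on the 13 arrays of whole embryo and E9.5 forelimb and 3.04 to 3.63 on the remaining 38 arrays, all of later limbs. The distance of the Gapdh 3′ from its 5′ probe set was 1.48 to 2.85 log2 units in the first set and -0.10 to 0.16 in the second. The whole embryo series and the E9.5 forelimb lie in 1 set and the limb series from E10.5 in the other. Where a limb group of E10.5 or later is set against whole embryo, tissue and array set cannot be told apart. For 2 arrays, titled hindlimb E11.5 replicate 5 and forelimb E12.5 replicate 5, other labels name forelimb E12.5 and hindlimb E12.5. They were grouped by title, and results that rest on them are given both ways. The limb mesenchyme list (Prrx1, Prrx2, Tbx5, Tbx4, Hoxd13, Msx1) averaged 7.68 to 9.59 on limb arrays and 6.51 to 7.18 on whole embryo arrays, and 5 of its 6 genes were higher in forelimb, and 5 in hindlimb, than in whole embryo at E13.5.

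The promoters of albumin, alpha-fetoprotein, the linked fibrinogen genes and Serpina1b are shown because Alb, Fga and Serpina1b had some of the greater rises below and because 5 of these 6 windows hold motifs of liver factors. Fgg, which rose with Fga and Fgb, has none of the letters searched in its window and so no capitals. Each sequence is the 150 bases before the RefSeq gene start (GRCm38.p6), in the gene's own direction, and capitals mark the motifs searched.
Alb, chr5:90460720-90460869, plus strand: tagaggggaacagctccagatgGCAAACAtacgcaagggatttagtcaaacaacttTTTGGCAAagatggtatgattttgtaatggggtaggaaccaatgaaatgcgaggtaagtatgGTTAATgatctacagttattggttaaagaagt
Afp, chr5:90490564-90490713, plus strand: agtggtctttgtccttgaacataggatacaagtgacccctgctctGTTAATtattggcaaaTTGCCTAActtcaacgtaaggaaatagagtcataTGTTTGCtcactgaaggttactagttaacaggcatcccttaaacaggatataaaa
Fga, chr3:83026003-83026152, plus strand: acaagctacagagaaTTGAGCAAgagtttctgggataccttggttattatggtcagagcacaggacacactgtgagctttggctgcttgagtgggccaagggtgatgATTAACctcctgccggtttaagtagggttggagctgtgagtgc
Fgb, chr3:83049864-83050013, minus strand: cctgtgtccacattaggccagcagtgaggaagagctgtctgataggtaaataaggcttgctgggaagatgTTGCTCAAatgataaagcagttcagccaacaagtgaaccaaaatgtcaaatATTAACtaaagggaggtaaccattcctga
Fgg, chr3:83007574-83007723, plus strand: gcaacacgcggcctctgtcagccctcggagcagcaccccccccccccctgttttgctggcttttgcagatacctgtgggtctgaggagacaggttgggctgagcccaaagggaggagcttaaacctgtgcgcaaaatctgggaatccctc
Serpina1b, chr12:103738190-103738339, minus strand: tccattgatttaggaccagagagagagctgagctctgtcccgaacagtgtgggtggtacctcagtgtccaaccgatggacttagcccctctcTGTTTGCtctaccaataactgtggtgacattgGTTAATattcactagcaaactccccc

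Of the 33 measured members, 28 had a promoter in the RefSeq table. The letters GTTAAT, read as ATTAAC on the other strand, are a core of HNF1 sites. They were in a window of 7 of the 28 genes (Afp, Alb, Fga, Fgb, Hnf4a, Serpina1b and Vtn), a share of 25.0%, against 3.71% of all 32851 promoters. In Alb, Fga, Fgb and Serpina1b this match ended 26, 37, 23 and 20 bases before the start, and in Afp it ended 99 bases before. TTGCNNAA, read as TTNNGCAA on the other strand, the core of C/EBP sites, was found for 9 genes, 32.1% against 5.46% of all promoters. TGTTTGC, read as GCAAACA on the other strand and known as a forkhead core, was found for 8 genes, 28.6% against 2.44%. TGTTTAC, read as GTAAACA there and the other forkhead core searched, was found for 3 genes (Apoa2, Apoh and Foxa1), 10.7% against 1.80%. No capitals in the printed windows overlap one another. A gene was counted if any of its promoters matched, and 5 members have more than 1 promoter. The share of all promoters counts each promoter singly, so the paired shares are not in like units and the members' shares can be raised. These matches are letters in a window, not measured binding sites.

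Between E9.5 and E13.5 the whole embryo gained transcripts of 27 of the 33 members, the secreted proteins almost without exception. In limma's fit over all 14 groups, with a gene counted as changed at 2-fold or greater and a Benjamini-Hochberg adjusted p below 0.001 over 18194 genes, 11.3% of all genes were higher at E13.5 than at E9.5 and 2.42% were lower. The median change was 4.65 on the log2 scale over the 33 members and -0.00 over all genes. Fitted on the 4 arrays of E9.5 and E13.5 alone, 0 members passed, with adjusted p of 0.00113 for Alb, just past the threshold of 0.001. The 6 other members were Foxa2, which was called lower, Foxa1, Fetub and Tat, and Hnf4a and Cps1, whose changes of 0.83 and 0.95 passed the p threshold but not the fold threshold (limma adjusted p = 1.86e-09 and 1.18e-04). In whole embryo RNA, more cells of a type and more RNA per cell cannot be told apart, and fewer cells and less RNA per cell likewise.

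**Figure D1:**
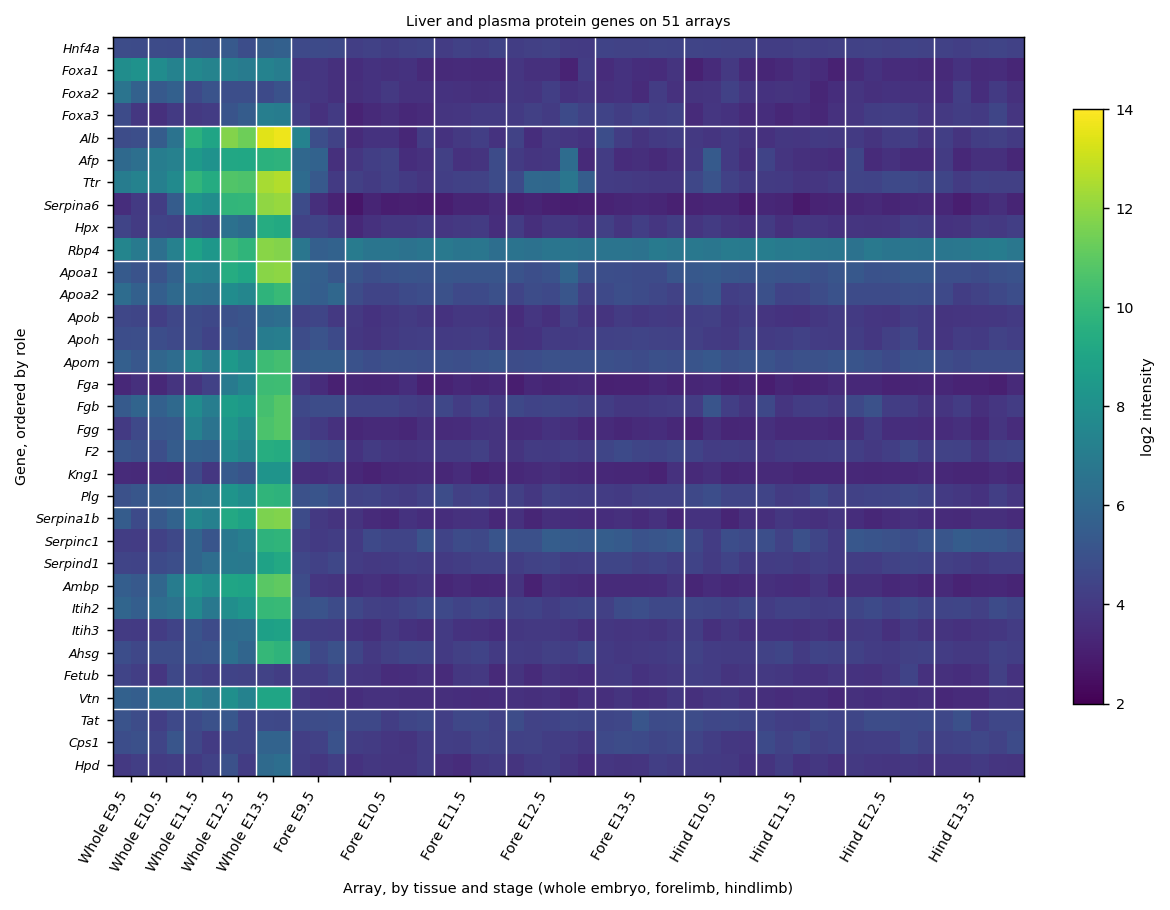
Log2 intensity (colour) of the 33 measured members (vertical axis, ordered by role) on the 51 arrays (horizontal axis, whole embryo, then forelimb, then hindlimb, each by stage). Most secreted protein genes brighten across the whole embryo columns and stay dark in the limb columns, with Alb at 13.68 on the brightest whole embryo array and at 7.33 on the brightest limb array.

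All 6 carrier proteins rose, by 3.48 to 8.74 on the log2 scale, and they include the member of greatest change. Albumin, the chief protein of plasma, read 4.77 and 4.90 on the whole embryo arrays at E9.5, 5.50 and 6.57 at E10.5, 9.67 and 9.0 at E11.5, 11.75 and 11.37 at E12.5, then 13.47 and 13.68 at E13.5. Its arrays did not overlap between any successive stages, and both arrays of each later stage lay above both of the stage before. The change from E9.5 to E13.5 was 8.74 ± 0.43 (log2 ± SE, n = 2 and 2), 427-fold, with a limma adjusted p of 4.49e-21. Serpina6, the corticosteroid-binding globulin, read 3.56 and 4.02 at E9.5, 4.16 and 5.50 at E10.5, 8.21 and 7.89 at E11.5, 9.88 and 9.94 at E12.5, then a mean of 12.08 ± 0.11 (SD, n = 2) at E13.5. It followed albumin closely, with no overlap between stages, and rose 312-fold (8.28 ± 0.28, limma adjusted p = 4.51e-27).

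Transthyretin (Ttr), which carries thyroid hormone, began higher on its own probe sets. It read 7.05 and 7.33 at E9.5, 7.18 and 7.74 at E10.5, 9.91 and 9.40 at E11.5, 10.76 and 10.67 at E12.5, then 12.45 and 12.60 at E13.5. The arrays of E9.5 and E10.5 overlapped and the later stages did not. Ttr rose 40.4-fold over the series (5.33 ± 0.38, limma adjusted p = 7.17e-16). Rbp4, the plasma carrier of retinol, was at 7.47 and 6.89 at E9.5, at 6.40 and 7.26 at E10.5 and at 11.85 and 11.78 at E13.5, a 24.8-fold rise (limma adjusted p = 3.94e-21), again with overlap at the first stages alone. Hemopexin (Hpx), which binds free heme, stayed between 4.10 and 4.79 on all 6 arrays from E9.5 to E11.5. It then stood at 6.49 and 6.17 at E12.5 and at 9.44 and 9.27 at E13.5, 33.4-fold above E9.5 (limma adjusted p = 2.57e-25).

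Alpha-fetoprotein (Afp), the fetal counterpart of albumin, averaged 6.10 and 6.39 at E9.5, 7.08 and 7.27 at E10.5, 8.55 and 8.10 at E11.5, 9.18 and 9.15 at E12.5, then 9.67 and 9.77 at E13.5. The rise was 3.48 ± 0.56 (11.1-fold, limma adjusted p = 1.29e-06), and no single step between successive stages passed the test. This gene average mixes 5 probe sets that did not move together. The probe sets 1416645_a_at, 1416646_at and 1436879_x_at rose 33.4-fold, 96.6-fold and 47.3-fold from means of 8.94, 7.44 and 5.85, while 1436880_at (3.85 to 3.64) and 1436881_x_at (5.16 to 5.53) stayed level. On the probe set of highest mean alone the change was 5.06 with an adjusted p of 0.0011, past the fold but not the p threshold.

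**Figure D2:**
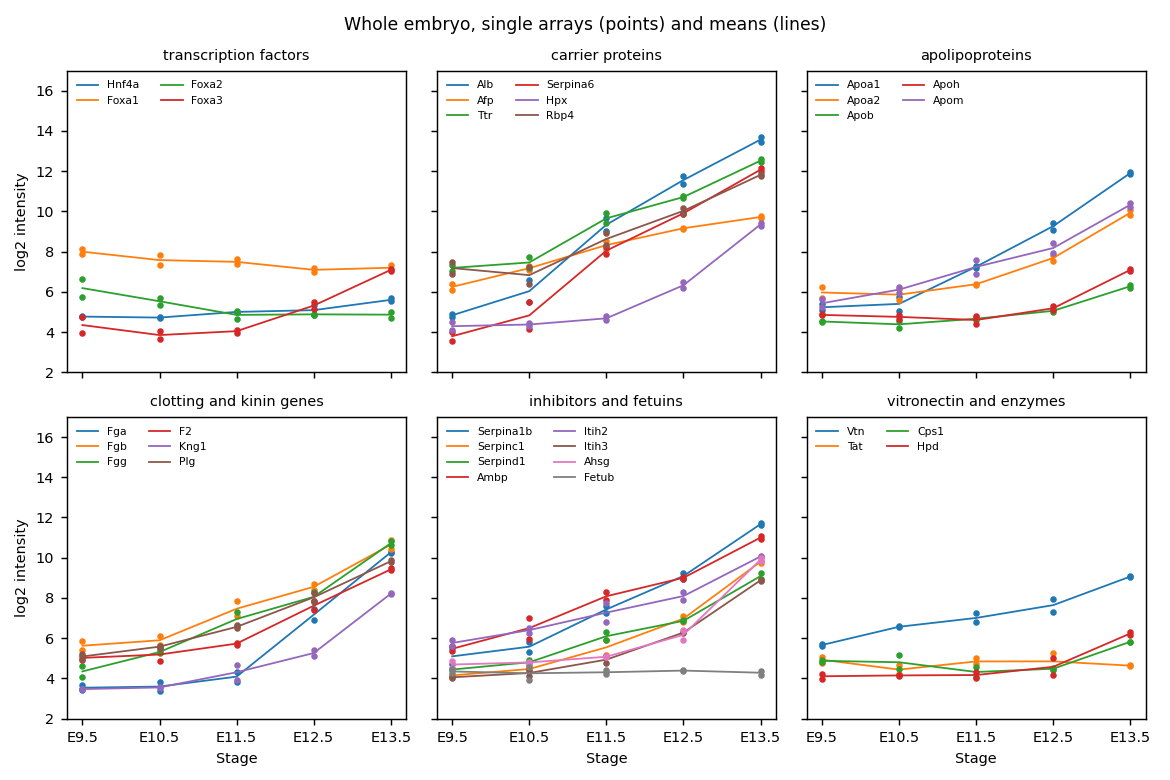
Log2 intensity in whole embryo (vertical axis) against stage (horizontal axis) for the members of each role, with points for single arrays and lines for the mean of 2 arrays. Carriers such as Alb climb from E10.5 on, Fga, Hpx and Ahsg climb after E11.5 and E12.5, and Foxa2, Fetub and Tat do not climb.

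All 5 apolipoproteins rose. Apoa1, the main protein of high density lipoprotein, read 5.38 and 5.08 at E9.5, 5.07 and 5.73 at E10.5, 7.31 and 7.19 at E11.5, 9.44 and 9.09 at E12.5, then 11.85 and 11.97 at E13.5. The first stages overlapped, and from E11.5 both arrays stood above all earlier ones. Its change was 102-fold (6.68 ± 0.20, limma adjusted p = 1.46e-28), and all 4 of its probe sets rose, by 57.7-fold to 165-fold. Apom, a carrier of sphingosine-1-phosphate, rose 29.9-fold from 5.62 and 5.24 to 10.23 and 10.44 (limma adjusted p = 8.19e-28). Apoa2, the second protein of high density lipoprotein, rose 15.7-fold from 6.26 and 5.68 to 9.80 and 10.07 (limma adjusted p = 3.27e-17). Neither gene's E13.5 arrays overlapped with any earlier array.

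Apoh, a phospholipid-binding plasma glycoprotein, and Apob, the structural protein of low density lipoprotein, had the smaller averages of the group, at 4.73-fold (2.24 ± 0.16, limma adjusted p = 1.12e-15) and 3.37-fold (1.75 ± 0.16, limma adjusted p = 8.98e-13). Each average joins a probe set that rose and one that did not. For Apoh, 1416677_at went from 4.47 to 9.40, 30.6-fold, and 1447719_at from 5.24 to 4.78. For Apob, 1455593_at went from 4.28 to 8.21, 15.3-fold, and 1457554_at from 4.78 to 4.35. The averaged fold changes of these genes are therefore smaller than those of their responding probe sets.

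**Figure D3:**
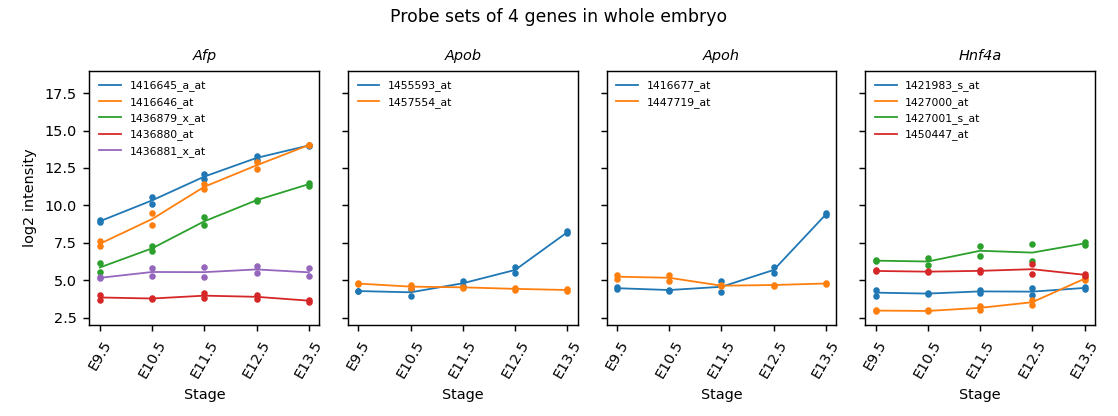
Log2 intensity in whole embryo (vertical axis) against stage (horizontal axis) for each probe set of Afp, Apob, Apoh and Hnf4a, with points for single arrays and lines for the mean of 2. In Afp 3 of 5 probe sets climb, in Apob and Apoh 1 of 2 climbs, and in Hnf4a 1427000_at goes from 2.97 to 5.10 while 1450447_at goes from 5.62 to 5.36.

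The 6 clotting and kinin genes all rose, by 4.40 to 6.73 on the log2 scale. Fibrinogen, the precursor of the fibrin clot, is built from the chains Fga, Fgb and Fgg, whose genes are neighbours in the mouse annotation. Fga read 3.40 and 3.67 at E9.5, 3.37 and 3.81 at E10.5, 3.84 and 4.33 at E11.5, 6.88 and 7.44 at E12.5, then 10.24 and 10.29 at E13.5. It lay within 1 unit on the 6 arrays up to E11.5 and then stood clear of them, ending 106-fold above E9.5 (6.73 ± 0.18, limma adjusted p = 2.43e-30). Fgb read 5.40 and 5.85 at E9.5, 7.83 and 7.09 at E11.5, and 10.44 and 10.86 at E13.5 (32.6-fold, limma adjusted p = 2.95e-19). Fgg read 4.06 and 4.63 at E9.5, 7.31 and 6.58 at E11.5, and 10.62 and 10.81 at E13.5 (83.1-fold, limma adjusted p = 2.24e-28). The E11.5 arrays of Fgb and Fgg were thus already above their E9.5 and E10.5 arrays, by 1.57 and 1.64 in the means against E10.5, where the Fga means differed by 0.49.

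Prothrombin (F2), whose active form cuts fibrinogen, rose 21.1-fold from 5.12 and 4.91 to 9.46 and 9.37. Plasminogen (Plg), the zymogen of the enzyme that dissolves clots, rose 26.7-fold from 4.98 and 5.19 to 9.87 and 9.77. Kininogen (Kng1), the precursor of bradykinin, rose 26.8-fold from 3.48 and 3.45 to 8.22 and 8.20. The limma adjusted p was 4.69e-24 for F2, 6.77e-26 for Plg and 1.18e-28 for Kng1, and in all 3 genes both E13.5 arrays lay above the other 8.

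Of the 8 inhibitors and fetuins, 7 rose. Serpina1b, an alpha-1-antitrypsin that inhibits elastase, went from 5.50 and 4.69 at E9.5 to 11.63 and 11.71 at E13.5, 95.4-fold (limma adjusted p = 1.12e-27). Both of its probe sets are of the kind shared between near-identical genes, so its signal and that of the other Serpina1 copies cannot be separated. Antithrombin (Serpinc1), the inhibitor of thrombin, rose 50.5-fold from 4.18 and 4.11 to 9.75 and 9.86 (limma adjusted p = 4.38e-22). Heparin cofactor II (Serpind1), another thrombin inhibitor, rose 25.1-fold from 4.46 and 4.41 to 8.92 and 9.25 (limma adjusted p = 9.66e-29). In each of these genes the first and last stages lay far apart beside the difference between the arrays of a stage.

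Ambp, which encodes alpha-1-microglobulin and bikunin in one precursor, rose 46.2-fold from 5.60 and 5.34 to 10.93 and 11.07 (limma adjusted p = 1.46e-24). Itih2 and Itih3, heavy chains that join bikunin in the inter-alpha-trypsin inhibitors, rose 19.7-fold and 28.4-fold (limma adjusted p = 1.92e-23 and 4.20e-28). Fetuin-A (Ahsg), an inhibitor of calcification, read 4.84 and 4.53 at E9.5, 4.79 and 4.80 at E10.5, 5.05 and 5.10 at E11.5, 6.41 and 5.92 at E12.5, then 9.98 and 9.83 at E13.5. It was nearly level for 3 stages and ended 37.3-fold up (5.22 ± 0.19, limma adjusted p = 4.52e-26). Fetub, its neighbour in the annotation, lay between 3.92 and 4.58 on all 10 whole embryo arrays, with a change of -0.06 ± 0.21 (limma adjusted p = 0.820). Ahsg, Fetub and Kng1 stand next to each other among the members in the annotation, and the middle gene was the one with no called change. Vitronectin (Vtn), an adhesive glycoprotein of plasma, rose 10.6-fold from 5.72 and 5.60 to 9.05 and 9.07 (limma adjusted p = 3.46e-23).

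Among the 3 enzymes, Hpd of tyrosine breakdown rose 4.38-fold, from 3.98 and 4.22 at E9.5 to 6.14 and 6.32 at E13.5 (limma adjusted p = 3.72e-13). Cps1, the first enzyme of the urea cycle, read 4.82 and 4.92 at E9.5, 4.08 to 5.15 from E10.5 to E12.5, and 5.82 and 5.82 at E13.5. Both E13.5 arrays lay above the other 8, but the change of 0.95 ± 0.20 was 1.93-fold, under the fold threshold (limma adjusted p = 1.18e-04). Tat, another enzyme of tyrosine breakdown, lay between 4.20 and 5.23 on the 10 arrays, with a change of -0.29 ± 0.20 (limma adjusted p = 0.222).

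The 4 transcription factors did not move as one. Foxa3, a forkhead factor of liver and gut, read 4.73 and 3.96 at E9.5, 3.67 and 4.03 at E10.5, 3.97 and 4.12 at E11.5, 5.13 and 5.50 at E12.5, then 7.13 and 7.05 at E13.5. Its last 2 stages stood above all earlier arrays, and it rose 6.71-fold (2.75 ± 0.20, limma adjusted p = 1.48e-15). Foxa2, a forkhead factor of endoderm, floor plate and notochord, fell from 6.63 and 5.74 at E9.5 to 4.71 and 5.02 at E13.5 (-1.32 ± 0.21, limma adjusted p = 1.21e-06). Without replicate 1 of E9.5 its change was -0.88 with an adjusted p of 0.00153, and the call was lost. The third forkhead gene, Foxa1, went from 7.87 and 8.12 to 7.32 and 7.08, -0.80 ± 0.20, under the fold threshold (limma adjusted p = 9.63e-04).

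Hnf4a, a nuclear receptor at the centre of the hepatocyte program, read 4.79 and 4.75 at E9.5 and 5.52 and 5.68 at E13.5. The arrays of these stages did not overlap, and the change of 0.83 ± 0.10 was 1.78-fold (limma adjusted p = 1.86e-09), again below the fold threshold. Its 4 probe sets differed: 1427000_at changed by 2.13, 1427001_s_at by 1.15, 1421983_s_at by 0.32 and 1450447_at by -0.26. Beside Foxa2, the floor plate and notochord list had 1 of 4 measured genes lower (Shh, -1.05 ± 0.23, limma adjusted p = 1.83e-04) and the gut endoderm list had 0 of 8 changed, with Krt8 the farthest at -0.96 (limma adjusted p = 0.00111). Their part in the Foxa2 result was not tested.

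The steps between successive stages were unequal. From E9.5 to E10.5, 0 members passed limma's test, against 0.44% of all genes higher. At an unadjusted p below 0.05 there were 14 members, 10 higher and 4 lower (Foxa1, Foxa2, Foxa3 and Tat), against 18.3% of all genes in either direction. From E10.5 to E11.5, 11 members were higher (0.544% of all genes), from E11.5 to E12.5, 15 (1.89%), and from E12.5 to E13.5, 27 (2.92%). The median step of the members grew from 0.17 to 0.66, 1.06 and 1.97 log2 units, where the medians of all genes were -0.04, -0.05, 0.15 and -0.02. The 27 members higher at E13.5 than at E12.5 include Cps1, which was not called over the whole series, and leave out Afp, which was.

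Counted from E9.5, 15 members were higher by E11.5, where 2.5% of all genes were, and 23 by E12.5, where 6.77% were. In a fit of the whole embryo arrays alone with the Gapdh distance as a covariate, 6 members were higher at E11.5 and 16 a day later. The share of all genes was not counted in that fit. In the main fit, a further 4 of the 27 members that rose over the whole series were first called at the last stage. The share of the change that came after E12.5 ran from 16.1% to 85.2%, with members all along that range. Albumin was already 22.7-fold above E9.5 at E11.5 and Serpina6 19.1-fold (limma adjusted p = 4.18e-11 and 1.01e-15), and 23.0% and 26.2% of their whole change came after E12.5. For Afp and Ttr that share was 16.1% and 33.9%. It was 36.1% for Ambp, 41.8% for Fgg, 46.1% for Fga, 50.1% for Serpinc1 and 56.7% for Apoa2. At the upper end, Apoh had 85.2% of its change after E12.5, Hpd 77.9%, Ahsg 71.6%, Apob 69.8%, Foxa3 64.7%, Kng1 62.2% and Hpx 59.8%. The shares of Afp, Apoh and Apob are of averages that join probe sets that rose and others that did not. The largest step was the one to E13.5 in 21 of the 27 members that rose, that to E11.5 in 5 and that to E12.5 in 1. Over the 5 stages together, the moderated F test of limma called 29 members, against 17.5% of all genes.

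The replicate arrays of whole embryo were not alike in these genes. At E10.5, replicate 2 was above replicate 1 for 28 of 33 members, by 1.07 for Alb (6.57 and 5.50) and 1.34 for Serpina6 (5.50 and 4.16). At E11.5 replicate 1 was above replicate 2 for 25 members. Shares of all genes in each order were not counted, so these counts do not set the members apart from other genes. The step counts moved with these arrays: leaving out replicate 1 of E10.5 left 7 members higher at E11.5 than at E10.5 and brought 2 calls between E9.5 and E10.5, as did leaving out replicate 2 of E9.5. The Gapdh 3′ to 5′ distance was 2.03 and 2.85 on the E9.5 arrays. With that distance as a covariate among the whole embryo arrays, 28 members still differed between E9.5 and E13.5, but 0 between E10.5 and E11.5, 0 between E11.5 and E12.5 and 17 between E12.5 and E13.5. Under that covariate the rise over the series was called, and no step before E12.5 was. Shares of all genes called there were not counted, so the lost calls are not set apart as a trait of the members. That fit held the 10 whole embryo arrays alone, so it had fewer residual degrees of freedom than the 37 of the main fit. From E10.5 to E11.5 the change was 3.30 for Alb in the main fit and 3.42 under the covariate. For Serpina1b it was 1.86 and 1.51. The parts of the covariate and of the smaller fit in the lost calls were not tested.

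Related genes that were not members rose less uniformly. Of 27 other plasma proteins measured, 15 rose and 0 fell from E9.5 to E13.5, with a list median of 1.37. Igfbp1, which binds insulin-like growth factors, rose by 5.35 ± 0.25, Serpina1c, another alpha-1-antitrypsin copy, by 5.25 ± 0.19, Serpinf2, the plasmin inhibitor, by 4.84 ± 0.19 and Apoc2, the activator of lipoprotein lipase, by 4.18 ± 0.18. Of 20 other clotting and complement genes, 10 rose (median 0.96), led by Cfi at 5.19 ± 0.23, F13b at 3.66 ± 0.14, Proc at 3.38 ± 0.19 and Cfb at 3.08 ± 0.16. Cfi and Cfb belong to the complement system, F13b is a subunit of the clot-stabilizing factor and Proc encodes the anticoagulant protein C. Of 24 liver enzymes and transporters, 10 rose and 1 fell (median 0.76). The fatty acid binding protein Fabp1 rose by 5.70 ± 0.18, the glucose transporter Slc2a2 by 3.80 ± 0.16 and the retinal dehydrogenase Aldh1a1 by 3.11 ± 0.24, whereas Arg1, the arginase of the urea cycle, fell from 9.86 to 5.59 (-4.27 ± 0.30). Of 14 other liver regulators, 3 rose: Cebpa, a C/EBP factor of hepatocytes and myeloid cells, by 2.12 ± 0.23, Cebpb by 1.16 ± 0.21 and Hhex, needed for the liver bud, by 1.04 ± 0.18. Their limma adjusted p ranged from 1.81e-10 to 7.76e-06.

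Other cell types changed in the same whole embryo arrays. In the erythroid list 6 of 9 genes rose and 1 fell, and its average went from 8.55 to 9.36 at E9.5 up to 10.96 to 11.01 at E13.5. The macrophage list rose in 5 of 6 genes, from an average of 5.17 to 5.20 up to 7.43 to 7.46, and the cartilage list in 5 of 6. In the visceral yolk sac list 2 genes rose (Pdzk1 by 1.41 and Mttp by 1.28) and 2 fell (Lrp2, -1.97, and Rhox5, -1.41), and its average was 5.02 to 5.13 at E9.5, 4.58 to 4.61 at E11.5 and 4.92 to 5.05 at E13.5. Mttp, which loads lipid onto Apob, is a gene of liver as well as yolk sac. The part of these cell types in the members' rise was not tested.

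In the forelimb bud at E9.5, 6 of 33 members differed from whole embryo past the thresholds. This comparison lies in 1 array set, but its arrays still differed by tissue. The Dap spike-in read 12.80 to 13.29 on the forelimb arrays and 11.74 and 11.61 on whole embryo of E9.5. The Gapdh distance was 1.48 to 1.73 in forelimb and 2.03 and 2.85 in whole embryo. Tissue and this array difference cannot be told apart here either. All 6 members were lower in forelimb, where 1.61% of all genes were, and 0 were higher, with a member median of -0.11. The greatest difference was Foxa1, at 3.67 to 3.90 on the 3 forelimb arrays and at 7.87 and 8.12 in whole embryo (-4.19 ± 0.18, 18.3-fold, limma adjusted p = 5.84e-22). Foxa2 followed at -2.33 ± 0.19 (limma adjusted p = 7.63e-13), and the arrays of the tissues did not overlap for either gene. Ttr was lower by 1.99 (limma adjusted p = 1.67e-05), Vtn by 1.83 (1.52e-14), Ambp by 1.31 (1.52e-06) and Rbp4 by 1.14 (3.24e-05). The Ttr call was lost without whole embryo replicate 2 and the Rbp4 call without any 1 of whole embryo replicate 1, forelimb replicate 2 or forelimb replicate 3.

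The 3 forelimb arrays of E9.5 disagreed on several carriers. Albumin read 7.33, 4.88 and 4.36 on replicates 1, 2 and 3, beside 4.77 and 4.90 in whole embryo of that stage. Replicate 1 was thus above every whole embryo array up to E10.5, while the other two overlapped with E9.5 whole embryo or lay below it, and the mean difference of 0.69 ± 0.39 was not called (limma adjusted p = 0.192). Afp read 6.03, 5.79 and 3.67, Ttr 6.19, 5.37 and 4.04, and Serpina6 4.76, 3.60 and 3.18 on the same arrays. On the Afp probe set 1416645_a_at the values were 8.72, 8.59 and 3.41. Replicate 1 was the highest of the 3 arrays for 17 of 33 members and replicate 3 the lowest for 19. How many of all genes had this order was not counted, so the counts do not set the members apart. The yolk sac list averaged 4.61, 4.64 and 4.58 on replicates 1, 2 and 3, and the gut endoderm list 6.95, 6.98 and 6.89. The part of yolk sac or gut RNA in the members' values on these arrays was not tested.

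**Figure D4:**
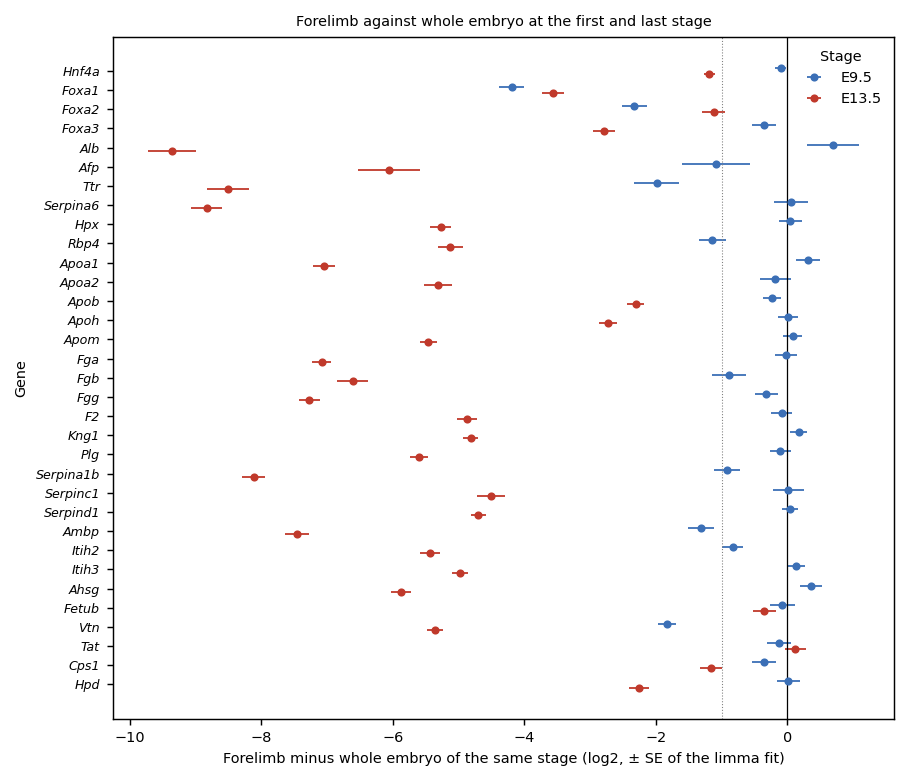
Difference of forelimb from whole embryo of the same stage (horizontal axis, log2 ± SE of the limma fit) for the 33 members (vertical axis) at E9.5 (blue) and E13.5 (red), with a dotted line at -1. At E9.5 most members lie near 0 and Foxa1 at -4.19, and at E13.5 all but Fetub and Tat lie beyond -1, with Alb at -9.36.

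From E10.5 on, the limb stayed low while the whole embryo rose, so the gap widened with stage. At E10.5 forelimb was lower than whole embryo for 16 members (3.44% of all genes) and hindlimb for 13 (3.41%). At E11.5 the counts were 20 (3.64%) and 20 (3.95%), and a day later 27 (5.44%) and 27 (5.43%). At E13.5 they were 31 (8.12%) and 31 (8.35%), and 0 members were higher in either limb at any of these stages. The member medians for forelimb went from -0.77 to -1.66, -3.29 and -5.27, and for hindlimb from -0.68 to -1.66, -3.22 and -5.38. With the arrays of conflicting labels left out these counts were the same, and with them in their other groups forelimb was lower for 28 members at E12.5 and the rest were the same. Both limbs were set against the same whole embryo arrays, and all of these comparisons cross the array sets.

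At E13.5 albumin averaged 4.22 in forelimb and 4.10 in hindlimb (n = 5 each) beside 13.57 in whole embryo (n = 2), a 655-fold and a 708-fold difference (limma adjusted p = 2.85e-25 and 1.81e-25). Serpina6 was 455-fold and 434-fold lower, Ttr 362-fold and 298-fold, Serpina1b 278-fold and 284-fold, and Ambp 175-fold and 206-fold. For 31 members both whole embryo arrays of E13.5 lay above all 38 limb arrays of E10.5 to E13.5. The share of all genes so separated was not counted, so this count does not set the members apart from other genes. Fetub (-0.35, limma adjusted p = 0.0876) and Tat (0.12, limma adjusted p = 0.578) did not differ between forelimb and whole embryo past the threshold, nor between hindlimb and whole embryo (-0.50 and -0.06, limma adjusted p = 0.0132 and 0.778). Of the related lists at E13.5, forelimb was lower for 15 of 27 other plasma proteins, 12 of 20 clotting and complement genes and 13 of 24 enzymes and transporters, and hindlimb for 15, 11 and 11.

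Whether the change with stage itself differed between tissues was tested as an interaction, from E10.5 to E13.5, which compares changes each taken within 1 array set. The rise was greater in whole embryo than in forelimb for 27 of 33 members (9.87% of all genes) and greater than in hindlimb for 27 (9.49%). The members not called in either were Hnf4a, Foxa1, Foxa2, Fetub, Tat and Cps1. For albumin the rise in whole embryo exceeded that in forelimb by 7.02 and that in hindlimb by 7.35.

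Within the limbs, 0 members changed between E10.5 and E13.5 in forelimb, where 10.6% of all genes did, and 0 in hindlimb, where 11.1% did. At an unadjusted p below 0.05 the counts were 9 and 8 of 33, where 61.5% and 60.8% of all genes passed, and the member medians were 0.03 and -0.06. On the 38 later limb arrays albumin lay between 3.36 and 4.86 with a median of 3.98, Serpina6 between 2.74 and 3.61 (median 3.24), Fga between 2.99 and 3.55 (median 3.26) and Rbp4 between 6.32 and 7.09 (median 6.71). These are levels of each gene's own probe sets, and a higher median of Rbp4 is not a higher level of that transcript.

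Small shifts below the 2-fold threshold were seen for a few members. Antithrombin (Serpinc1) averaged 4.53, 4.73, 5.24 and 5.30 in forelimb from E10.5 to E13.5 and 4.55, 4.54, 5.07 and 5.24 in hindlimb. The difference of E13.5 from E10.5 was 0.77 in forelimb (limma adjusted p = 8.59e-05) and 0.70 in hindlimb (6.97e-04). In forelimb Foxa3 went from 3.42 to 4.30 (0.88, limma adjusted p = 7.04e-08), F2 from 3.90 to 4.54 (0.65, 3.27e-06) and Cps1 from 4.03 to 4.65 (0.62, 4.4e-05). In hindlimb Plg went from 4.59 to 3.97 (-0.62, limma adjusted p = 8.62e-06). The erythroid list fell in the same limb arrays, from 9.72 to 10.36 at E10.5 to 7.08 to 7.21 at E13.5 in forelimb, with 8 of its 9 genes lower. Its part in the members' limb values was not tested.

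Between E9.5 and E10.5 the forelimb values of 31 of 33 members were lower, with a median of -0.49. This pair of stages crosses the array sets, and 59% of all genes also had lower values, with a median of -0.10. Stage and array set cannot be told apart here.

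Forelimb and hindlimb of the same stage differed in 0 members at E10.5 (0.566% of all genes), in 0 at E11.5 (0.412%), in 1 a day later (0.506%) and in 0 at E13.5 (0.286%). At an unadjusted p below 0.05 the counts were 3, 2, 4 and 4 of 33, where 27.5%, 14.4%, 24% and 17.4% of all genes passed. The member was Ttr. At E12.5 it read 4.70, 6.06, 5.99, 6.69 and 5.54 on forelimb replicates 1 to 5 (mean 5.80 ± 0.74 SD, n = 5) and 4.47, 4.43, 4.67, 4.66 and 4.52 in hindlimb (4.55 ± 0.11 SD, n = 5). All forelimb arrays lay above all hindlimb arrays, narrowly for forelimb replicate 1, and the difference was 1.25 ± 0.24 (2.37-fold, limma adjusted p = 3.39e-04). Ttr was also the 1 member that the F test over the 8 limb groups called (range of means 1.82, adjusted p = 9.79e-08), where 16.9% of all genes were called.

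The Ttr difference rested on particular arrays and probe sets. Its probe set of highest mean, 1451580_a_at, read 6.11 in forelimb and 5.80 in hindlimb at E12.5 (0.31, adjusted p = 0.177), while 1454608_x_at read 6.24 and 4.44, 1455913_x_at 5.36 and 3.81, and 1459737_s_at 5.48 and 4.14. With the arrays of conflicting labels moved to their other groups, the difference was 0.79 (adjusted p = 0.240), and without them 1.31 (adjusted p = 7.06e-04). Leaving out forelimb replicate 2, 3 or 4 or hindlimb replicate 1, 2 or 5 gave 1.18, 1.20, 1.02, 1.23, 1.22 and 1.24, with adjusted p between 0.00122 and 0.00372, above the threshold. The choroid plexus and pigment epithelium list, whose tissues make transthyretin, averaged 4.06 to 4.37 on the forelimb arrays and 4.26 to 4.32 on the hindlimb arrays of E12.5. The part of these tissues in the Ttr difference was not tested.

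A single forelimb array of E12.5, replicate 4, held the highest later limb value of 5 members, Foxa3, Afp, Ttr, Apoa1 and Apob. Afp read 6.22 there and 3.45 to 4.11 on the other 4 arrays, and its probe set 1416645_a_at read 9.76 against 3.26 to 5.44. Apoa1 read 5.93 there and 4.89 to 5.09 on the others. Albumin was at most 4.86 on any later limb array, and that array was forelimb E13.5 replicate 1. On replicate 4 the visceral yolk sac list averaged 4.45 against 4.20 to 4.28 on the other 4. The part of yolk sac RNA in these values was not tested. Hindlimb E10.5 replicate 2 held the highest later limb value of 4 members, with Fgb at 5.13 against 3.87 to 4.23 on the other 3 arrays. Without this forelimb replicate 4 and the E9.5 forelimb replicate 1, each count against whole embryo from E10.5 was the same as with them, and 7 members in place of 6 were lower in forelimb at E9.5.

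**Figure D5:**
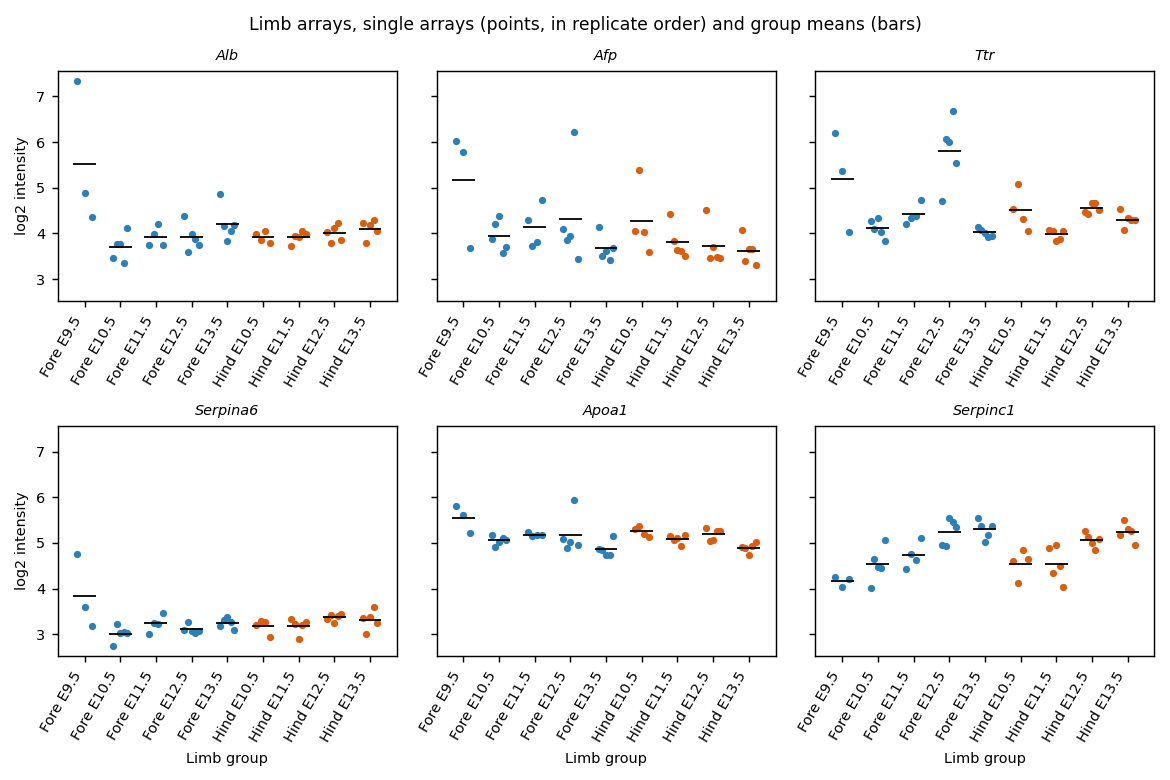
Log2 intensity (vertical axis) of Alb, Afp, Ttr, Serpina6, Apoa1 and Serpinc1 on each limb array (points, in replicate order, forelimb blue and hindlimb orange) by limb group (horizontal axis), with a bar at each group mean. Alb reaches 7.33 on 1 E9.5 forelimb array, Afp 6.22 and Apoa1 5.93 on 1 E12.5 forelimb array, and Ttr is above the hindlimb arrays on all 5 forelimb arrays of E12.5.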

How the data were processed

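Total RNA of FVB whole embryos, forelimbs and hindlimbs was labelled in 2 cycles and hybridized to 51 Affymetrix mouse arrays. The deposited values are linear intensities that the authors made with RMA (named in the submitters' processing notes, version not given in the sources used here), and the study's methods state that a blemish on 1 whole embryo array of E12.5 was corrected. No columns were left unused (0 columns of other samples), and 0 pairs of arrays held identical values. Samples were grouped by title. Log2 was taken of the 45101 probe sets, of which 34958 have 1 gene symbol in the platform annotation, 932 several and 9211 no entry, and averaged to 18194 genes. The number of arrays limits precision.

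Genes were tested with limma 3.58.1 in R 4.3.3 on all 14 groups (37 residual degrees of freedom), with 2-fold and a Benjamini-Hochberg adjusted p of 0.001 as thresholds, after the study's methods. The fit was tested on simulated data for whole embryo E13.5 against E9.5 over 18194 genes: 49 of 50 genes changed by 1.5 log2 units were called, and all 50 at 2, 3 and 5. The simulated noise was independent between genes, with 1 spread per gene over all groups. It thus holds no shift shared by the genes of an array and no wider spread in whole embryo, and the recovery does not cover these. Alternatives covered probe set choice, quantile normalization, a filter on dim genes (log2 of 6), the samples fitted, a variance trend, the threshold, a replicate block, the arrays of conflicting labels, the Gapdh distance and leaving out each array in turn. Leaving out the 2 arrays of highest limb levels was added after seeing the data. The members and lists were chosen with earlier results of these data known. Every measured member is named, and of each related list up to 4 called genes of greatest change in whole embryo E13.5 against E9.5, or the one of greatest change where none was called, plus marker genes beside a member's result. Arg1 and Shh come under this rule. Probe sets whose probes can match near-identical genes (x_at, s_at) were kept as annotated. Promoters came from RefSeq tables of GRCm38.p6. The coordinates printed are those of the RefSeq promoter table, since the sources used here name no genome build for the arrays.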

Additional observations from a re-analysis of the deposited data

Results flagged for a closer look

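Among 264 sets of replicate values (a member in a limb group of 4 or 5 arrays), 10 held an array far from the others by Dixon's ratio, where chance gives about 1 in 20. Of these, 2 lay on forelimb E12.5 replicate 4, with Afp at 6.22 (others 3.45 to 4.11) and Apoa1 at 5.93 (others 4.89 to 5.09). The other high arrays were Afp at 4.51 on hindlimb E12.5 replicate 1 (others 3.47 to 3.70), Fgg at 3.67 on hindlimb E11.5 replicate 1 (3.38 to 3.46) and at 4.03 on hindlimb E12.5 replicate 2 (3.53 to 3.63), Ambp at 3.81 on forelimb E13.5 replicate 5 (3.47 to 3.51) and Fetub at 4.25 on hindlimb E13.5 replicate 4 (3.56 to 3.75). The low arrays were Apom at 4.62 on hindlimb E13.5 replicate 2 (4.77 to 4.80), F2 at 3.88 on hindlimb E13.5 replicate 3 (4.30 to 4.42) and Tat at 4.17 on forelimb E10.5 replicate 3 (4.50 to 4.61).

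The change from E10.5 to E13.5 differed between tissues, by limma's interaction test, for 27 members between whole embryo and forelimb and for 27 between whole embryo and hindlimb. The difference from forelimb was greatest for Alb at 7.02 and smallest among the called members for Apob at 1.86. The difference from hindlimb ran from 7.35 for Alb to 2.14 for Apob.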

How the results depend on the processing

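No result reversed under any alternative. Fitting only the groups compared, which leaves 2 arrays against 2, left 0 members called in whole embryo from E9.5 to E13.5, E11.5 or E12.5, 0 from E10.5 to E11.5 and from E11.5 to E12.5, 3 from E12.5 to E13.5, 1 in E9.5 forelimb, 0 between forelimb and hindlimb at E12.5 and 0 related genes in place of 38. With quantile normalization 3 members were called from E9.5 to E10.5 and 0 between the limbs at E12.5. The last count was also 0 on the probe set of highest mean, which left 0 in the test over limb groups, and 0 with the arrays of conflicting labels in their other group. The fit with the Gapdh distance as a covariate held the whole embryo arrays alone. In it 0 members were called from E10.5 to E11.5, 0 from E11.5 to E12.5, 17 from E12.5 to E13.5 and 7 from E9.5 to E11.5. At an adjusted p of 0.05 with no fold threshold, calls in whole embryo were 6 at E10.5 against E9.5, 18 at E11.5 against E10.5 and 24 at E12.5 against E11.5. At that setting 26 members differed in forelimb at E10.5 and 23 and 31 in hindlimb at E10.5 and E11.5 against whole embryo, 8 changed within forelimb and 7 within hindlimb over these stages, 1 differed between limbs at E11.5 and 9 over limb groups. The share of all genes was not counted at this setting or in the covariate fit, so these counts do not set the members apart from other genes.

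The member counts that follow hold both directions. Leaving out single arrays gave 27 to 28 members for E13.5 against E9.5 in whole embryo, 0 to 2 for E10.5 against E9.5, 7 to 13, 10 to 16 and 25 to 25 for the later steps, and 13 to 18 and 24 to 25 for E11.5 and E12.5 against E9.5. With all arrays these last counts were 16 and 24, each with the lower call of Foxa2, as was the 28 for E13.5 against E9.5. Against whole embryo it gave 5 to 7, 13 to 17, 20 to 21, 26 to 28 and 30 to 31 in forelimb and 10 to 17, 20 to 22, 27 to 28 and 30 to 31 in hindlimb. It gave 0 to 1 between limbs at E12.5 and 0 at the other stages, 0 within each limb, 26 to 27 for both interactions, 28 to 29 over whole embryo stages, 1 over limb groups and 36 to 39 related genes. Of the 2843 values of called members so obtained, 73 lost the call, and of 3815 under the other alternatives 212 did.

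The labels do not say whether a replicate number marks the same embryo in forelimb and hindlimb, and the groups were fitted as unpaired. The study's methods take the limb buds of a sample from 1 embryo and give 5 embryos as the total. A forelimb and a hindlimb sample of a stage may thus share an embryo. Of 18 forelimb and hindlimb pairs of a number, 9 correlated above 0.1 (-0.11 to 0.35, consensus correlation 0.11), every pair at E12.5 and E13.5 was above 0, and 5 had their best match in their own number. Whether the numbers pair the samples cannot be told. With a replicate block, 28 members were called between E9.5 and E13.5 in whole embryo, 11, 15 and 27 over the later steps and 1 between limbs at E12.5, and none of the counts moved by over 1.5 times.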
